A study of Mus musculus with 30 samples.

Results

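Podxl, Emcn, Cd34, Sdc1, Sdc2, Sdc3, Sdc4, Gpc1 and Cd44 encode core proteins of the endothelial glycocalyx, and their RNA was followed in 14 RNA-seq libraries from adult male mouse brain. The members were taken as a list of gene symbols and are 9 of the 21847 protein-coding genes in the deposited estimates. All 9 were found, each under 1 gene identifier, and all 9 passed the filter on low counts in every comparison. Acutely isolated endothelial cells (ECs, 2 libraries) were GFP-positive cells sorted from the brains of mice carrying Tie2-GFP, a transgene in which an endothelial promoter drives GFP, and the GFP-negative cells of such sorts gave 2 further libraries. WT cultured brain ECs (6 libraries) were grown for 8 days after puromycin selection, which spares cells with the efflux pump P-glycoprotein, on collagen with serum and growth factors. WT replicates 1 and 2 came from C57BL/6J mice by isolation method A, and replicates 3 to 6 from Ctnnb1flex3/+;Tie2-GFP mice by method B. The genotypes are those of the labels. The isolation methods follow the study's methods section, whereas a figure legend there assigns method B to 2 WT libraries only, so method B for replicates 5 and 6 is less certain. Those method B controls carried the conditional beta-catenin allele without a Cre and had received 4-hydroxytamoxifen after birth. Beta-catenin stabilized cultured ECs (4 libraries) came from Ctnnb1flex3/+;Pdgfb-CreER;Tie2-GFP mice given 4-hydroxytamoxifen, in which an EC-restricted Cre removes the exon that marks beta-catenin for degradation, with replicates 1 and 2 by method A and 3 and 4 by method B. Each culture experiment pooled the brains of several mice, and its replicates were wells, 2 per experiment, so p-values partly measure the spread between wells of 1 preparation. ATAC-seq, which maps open chromatin by transposase insertion, gave 2 libraries of acutely isolated ECs, 6 of WT cultured ECs and 2 of beta-catenin stabilized cultured ECs.

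The glycocalyx is the layer of sugar-bearing proteins on the luminal face of the endothelium, where it meets flowing blood, limits the access of plasma proteins and blood cells to the membrane and binds growth factors. Sialomucins such as podocalyxin (Podxl), endomucin (Emcn) and CD34 carry dense O-linked glycans that end in negatively charged sialic acid. Syndecans (Sdc1 to Sdc4) span the membrane and glypicans such as Gpc1 are held by a lipid anchor, and both carry heparan sulfate chains, while CD44 binds the glycosaminoglycan hyaluronan. RNA levels report neither the protein at the surface nor its glycosylation.

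RNA-seq depth was between 24284843 and 94686456 estimated counts per library. In the acutely isolated ECs 10.6% to 11.2% of counts came from mitochondrial genes, against 0.667% to 1.58% in the WT cultures, and hemoglobin genes took 0.329% and 2.13%. All 8 genes of an EC marker list were at 5 TPM (a unit scaled for transcript length and library size) or more in every acutely isolated and cultured library, with a summed level of 2730 to 3396 TPM in the acutely isolated ECs, 1661 to 3946 TPM in the WT cultures, 1887 to 5373 TPM in the stabilized cultures and 105 to 110 TPM in the GFP-negative cells. Pericyte markers (7 genes) summed to 543 and 555 TPM in the acutely isolated ECs and to at most 14.6 TPM in any culture. Smooth muscle markers (4 genes) summed to 214 and 233 TPM in the acutely isolated ECs, 501 to 3068 TPM in the WT cultures and 461 to 2561 TPM in the stabilized cultures, nearly all of it Acta2 and Tagln, and Myh11 was at 0.50 to 3.11 TPM in the cultures. The acutely isolated and GFP-negative libraries were single-end and the cultured libraries paired-end, so culture and read type cannot be told apart. In bulk RNA, fewer cells of a type and less RNA per cell cannot be told apart either.

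Open chromatin around the members is shown by 4 windows of 151 bases centred on peak summits (GRCm38, plus strand). The first 3 lie in regions with a peak in all 8 cultured libraries and in neither acutely isolated library, and the last in a region with the reverse pattern. They are shown as regions at Sdc4 and the sialomucins that were called in one state and not in the other. The 3 culture windows are those of the members' 6 that held a match. Capitals mark matches, on either strand, to 7 short motifs that were searched: TGANTCA (AP-1), GGAATG (TEAD), CGGAAG (ETS), ACAAT (SOX), TGTTTAC (FOX), CTTTGAT (TCF/LEF) and GGGCGG (SP/KLF). No 2 matches overlapped in these windows. A match is a description of letters and not of a bound factor.
Sdc4 intron, cultured only, chr2:164439039-164439189, 4072 bases inside the gene from the nearest start, holding 2 AP-1 matches and 1 TEAD match: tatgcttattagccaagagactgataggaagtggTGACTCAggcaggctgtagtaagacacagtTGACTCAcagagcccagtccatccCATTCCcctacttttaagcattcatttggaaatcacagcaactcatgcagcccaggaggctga
Podxl intron, cultured only, chr6:31549485-31549635, 14421 bases from the nearest start, holding 1 AP-1 and 1 TEAD match: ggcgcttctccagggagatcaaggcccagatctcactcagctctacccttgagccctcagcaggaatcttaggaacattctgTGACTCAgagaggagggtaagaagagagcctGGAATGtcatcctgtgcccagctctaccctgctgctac
Upstream of Emcn, cultured only, chr3:137331587-137331737, -9405 bases from the start, the minus meaning upstream, holding 1 SOX and 1 TEAD match: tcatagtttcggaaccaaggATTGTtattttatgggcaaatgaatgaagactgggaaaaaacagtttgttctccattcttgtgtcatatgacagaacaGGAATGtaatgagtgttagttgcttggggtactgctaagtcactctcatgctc
Cd34 intron, acutely isolated only, chr1:194957362-194957512, 18562 bases from the nearest start, with no match: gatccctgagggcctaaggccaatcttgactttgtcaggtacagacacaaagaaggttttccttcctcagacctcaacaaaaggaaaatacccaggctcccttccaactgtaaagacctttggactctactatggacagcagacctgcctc
The fold enrichment of the Sdc4 region ran from 7.23 to 16.9 over the 8 cultured libraries, that of the Podxl intron region at 14421 bases from 4.53 to 8.89 and that of the upstream Emcn region from 5.88 to 10.3. The acutely isolated Cd34 region had fold enrichments of 4.11 and 3.80.

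In the acutely isolated ECs the sialomucins made up almost all of the summed TPM of the 9 genes. The sum was 837 and 760 TPM in the 2 acutely isolated libraries, of which Podxl, Emcn and Cd34 together held 96.6% and 95.3%. Cd34 held 53.0% and 37.2%, Podxl 31.5% and 34.9%, and Emcn 12.1% and 23.2%. In the GFP-negative cells the sum was 144 and 176 TPM, with 2.66% and 5.11% from the sialomucins and 79.0% and 88.6% from the syndecans. The cultures held larger sums, from 1155 to 2806 TPM in the WT and from 1152 to 3113 TPM in the stabilized libraries, and Emcn alone accounted for 56.6% to 82.1% of the WT sum and 67.9% to 77.2% of the stabilized sum. Podxl fell to between 1.40% and 2.32% of the WT sum. These sums and shares are descriptions of levels per transcript length, and were not tested. TPM was not scaled further between libraries. On log2(TPM + 1) the median difference over all genes tested was itself 0.55 for WT cultured and for stabilized over acutely isolated ECs.

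**Figure D1:**
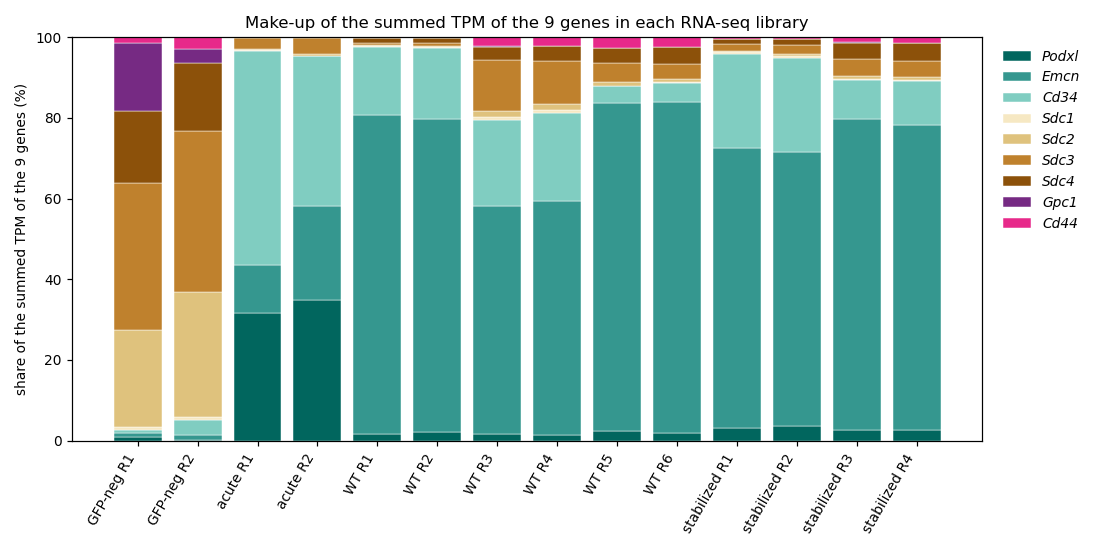
Share of the summed TPM of the 9 glycocalyx genes held by each gene in each of the 14 RNA-seq libraries (bars from 0 to 100%). Cd34 and Podxl fill most of the acutely isolated bars, Emcn fills 56.6% to 82.1% of the WT bars, and the syndecans fill 79.0% and 88.6% of the GFP-negative bars.

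The order of the mean TPM in the acutely isolated ECs was Cd34, Podxl, Emcn, Sdc3, Sdc2, Sdc1, Sdc4, Gpc1 and Cd44, and only the neighbours Sdc1 and Sdc4, and Gpc1 and Cd44, had ranges that overlapped. In the WT cultures Emcn came first and did not overlap with Cd34, while every later pair of neighbours (Cd34, Sdc3, Sdc4, Podxl, Cd44, Sdc2, Sdc1, Gpc1) overlapped. In the stabilized cultures the order was Emcn, Cd34, Podxl, Sdc3, Sdc4, Cd44, Sdc2, Sdc1 and Gpc1, with Podxl, Sdc3 and Sdc4 overlapping their neighbours and Cd44, Sdc2, Sdc1 and Gpc1 likewise. In the GFP-negative cells Sdc3 and Sdc2 were highest, overlapped each other and lay above the rest.

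**Figure D2:**
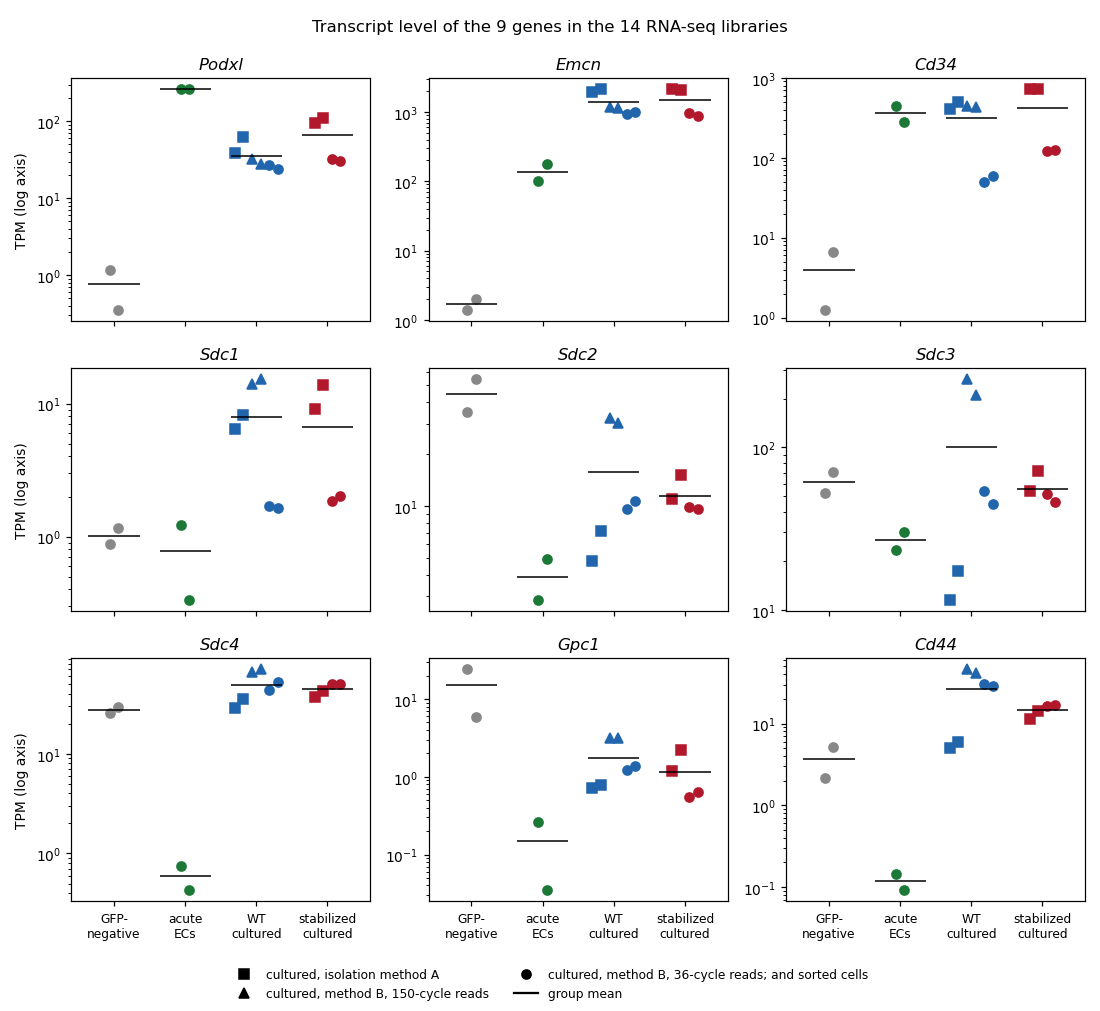
TPM of each of the 9 genes in every RNA-seq library, by group (log axis), each point 1 library, shaped by culture experiment, and each line a group mean. Emcn sits between 939 and 2172 TPM in the WT cultures against 101 and 176 TPM in the acutely isolated ECs, and Podxl between 23.6 and 62.6 TPM against 264 and 265 TPM.

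The 3 sialomucins were each enriched in the acutely isolated ECs over the GFP-negative cells, and the cultures held far less Podxl and far more Emcn RNA than the acutely isolated ECs. Differences were tested on the estimated counts of all genes with edgeR's quasi-likelihood test and Benjamini-Hochberg adjustment, and a gene was called where the adjusted p was under 0.05, the log2 fold change over 1 in size and the level at least 5 TPM in every library of the higher group. Log2 fold changes are given with their standard error (SE).

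Podxl, an anti-adhesive sialomucin of the apical membrane, was at 1.17 and 0.357 TPM in the GFP-negative cells and at 264 and 265 TPM in the acutely isolated ECs. In the WT cultures it was at 23.6, 29.9 and 62.6 TPM (lowest, median, highest) and in the stabilized cultures at 94.0, 111, 32.1 and 30.2 TPM (replicates 1 to 4). Every cultured library therefore lay below both acutely isolated libraries and above both GFP-negative libraries, with means of 264 ± 0.778 TPM (SD, n = 2) in the acutely isolated and 35.3 ± 14.4 TPM (SD, n = 6) in the WT cultured ECs. The log2 fold change was 8.24 (SE 0.94, adjusted p = 0.00299) for acutely isolated over GFP-negative cells and -3.72 (SE 0.52, adjusted p = 0.000806) for WT cultured over acutely isolated ECs. The latter call was the same in 22 of 22 alternative settings, where the log2 fold change ran from -4.86 to -2.95. Salmon assigned up to 27.3% of the Podxl TPM in the acutely isolated ECs to a short processed transcript of 344 bases, and with protein-coding transcripts alone the acutely isolated mean was 226 TPM.

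Emcn, which limits the adhesion of leukocytes to capillary and venous endothelium, moved the other way. It was at 1.41 and 1.99 TPM in the GFP-negative cells and 101 and 176 TPM in the acutely isolated ECs. The WT cultures held 939, 1163 and 2172 TPM (lowest, median, highest) and the stabilized cultures 2118, 2113, 957 and 870 TPM. No cultured library came near the acutely isolated range, and the means were 139 ± 53.3 TPM (SD, n = 2) acutely isolated and 1397 ± 519 TPM (SD, n = 6) WT cultured. Acutely isolated ECs exceeded GFP-negative cells by a log2 difference of 5.94 (SE 0.39, adjusted p = 0.00166), and WT cultured exceeded acutely isolated ECs by 2.83 (SE 0.57, adjusted p = 0.00427), a call kept in 22 of 22 alternatives. The transcript mix also differed: a coding transcript of 1357 bases took 26.9% to 39.9% of the gene's TPM in the acutely isolated ECs and 65.6% to 77.2% in the cultures, and 1 of 723 bases took 39.8% to 41.2% and 12.9% to 17.1%. Such splits are estimates from libraries of different read type, and were not tested.

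Cd34, a ligand for selectins on specialised endothelium and a marker of vascular and hematopoietic progenitors, was at 1.26 and 6.64 TPM in the GFP-negative cells and 444 and 282 TPM in the acutely isolated ECs. The WT cultures held 49.4, 421 and 496 TPM (lowest, median, highest) and the stabilized cultures 718, 730, 121 and 126 TPM. The WT range spanned the acutely isolated values: replicates 1 to 4 lay at 412 TPM or above and replicates 5 and 6 at 49.4 and 58.6 TPM. Cd34 was enriched in acutely isolated ECs over GFP-negative cells by 6.99 (SE 0.49, adjusted p = 0.00166), and was not called between WT cultured and acutely isolated ECs (log2 fold change -0.54, SE 0.72, adjusted p = 0.565). Against replicates 5 and 6 alone it was called lower, at -2.41 (SE 0.30, adjusted p = 0.00748). The summed EC marker list stood at 1661 and 1721 TPM in those 2 wells. In the other 4 WT wells it stood at 2565 to 3946 TPM. Pecam1, Cldn5, Tie1 and Egfl7 were lower in replicates 5 and 6, with Cldn5 at 92.1 and 118 TPM against 441 to 774 TPM. Cdh5 was higher there, at 295 and 281 TPM against 136 to 228 TPM, and Erg, Esam and Eng lay within the other wells' ranges. The smooth muscle list stood at 3049 and 3068 TPM against 501 to 2178 TPM. Most of it was Tagln (2322 and 2324 TPM), while Acta2, at 683 and 698 TPM, lay within the other wells' 153 to 909 TPM. The part of these differences in the Cd34 level was not tested.

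The syndecans were, as a group, low in the acutely isolated ECs and 1 of them, Sdc4, was called higher in culture. Sdc4, a widely expressed syndecan of focal adhesions, was at 25.6 and 29.6 TPM in the GFP-negative cells and at 0.757 and 0.431 TPM in the acutely isolated ECs (278 and 76 estimated counts). It was at 28.8, 47.8 and 70.5 TPM (lowest, median, highest) in the WT cultures and 37.2, 42.0, 50.1 and 50.4 TPM in the stabilized cultures. The acutely isolated ECs thus lay below every other library. WT cultured exceeded acutely isolated ECs by 5.11 (SE 0.58, adjusted p = 0.000332), kept in 22 of 22 alternatives, and acutely isolated ECs lay below GFP-negative cells by -5.28 (SE 0.65, adjusted p = 0.00365) on the log2 scale. In the GFP-negative libraries the astrocyte, oligodendrocyte and smooth muscle marker lists each summed to 690 TPM or more. They summed to at most 468 TPM in the acutely isolated ECs, and that astrocyte sum was nearly all Gja1 (464 TPM). The pericyte list did not separate these groups, at 387 and 750 TPM GFP-negative and 543 and 555 TPM acutely isolated.

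Sdc1, the syndecan best known from epithelia and plasma cells, was low everywhere outside the cultures, at 0.881 and 1.15 TPM in the GFP-negative cells and 1.21 and 0.335 TPM in the acutely isolated ECs. The WT cultures held 1.65, 7.33 and 15.3 TPM (lowest, median, highest) and the stabilized cultures 9.03, 13.8, 1.86 and 2.03 TPM. All cultured libraries lay above both acutely isolated libraries, but replicates 5 and 6 of the WT and 3 and 4 of the stabilized cultures lay close to them. Its log2 fold change of 3.11 (SE 0.73, adjusted p = 0.00852) for WT cultured over acutely isolated ECs passed the p and fold thresholds and failed the 5 TPM minimum. With an offset for transcript length the adjusted p was 0.0559, and a 342-base transcript took up to 78.7% of Sdc1 TPM in the acutely isolated ECs.

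Sdc2, a syndecan of mesenchymal and endothelial cells, was highest in the GFP-negative cells, at 34.9 and 54.5 TPM, and was at 2.86 and 4.94 TPM in the acutely isolated ECs. The WT cultures held 4.77, 10.2 and 32.4 TPM (lowest, median, highest) and the stabilized cultures 11.0, 15.1, 9.89 and 9.62 TPM. Only WT replicate 1 overlapped the acutely isolated range, and replicates 3 and 4 at 32.4 and 30.1 TPM stood above the other WT wells. Sdc2 was called lower in acutely isolated ECs than in GFP-negative cells, at -3.10 (SE 0.33, adjusted p = 0.00252), and not called between WT cultured and acutely isolated ECs, at 0.38 (SE 0.47, adjusted p = 0.539). An offset for transcript length gave 1.19 (adjusted p = 0.0574). WT replicates 3 and 4 also had the highest fibroblast marker sums among the WT wells, 32.6 and 33.4 TPM against 5.03 to 16.7 TPM. In these 2 wells the sum was nearly all Col1a1 (20.8 and 17.5 TPM) and Col1a2 (10.9 and 15.0 TPM). Of the 6 listed fibroblast genes, 4 were under 1 TPM in every WT well, 1 of them at 0 throughout. Stabilized replicate 2 had a higher fibroblast sum, 55.2 TPM, with Sdc2 at 15.1 TPM.

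Sdc3, the syndecan of the nervous system, was the most abundant syndecan in the acutely isolated ECs, at 23.3 and 30.3 TPM, and in the GFP-negative cells, at 52.5 and 70.4 TPM. The WT cultures held 11.6, 49.5 and 264 TPM (lowest, median, highest) and the stabilized cultures 53.9, 71.7, 51.6 and 46.0 TPM. The WT wells fell on both sides of the acutely isolated values, with replicates 1 and 2 below them and replicates 3 to 6 above. No comparison of the main groups called Sdc3: WT cultured over acutely isolated ECs gave 0.22 (SE 0.74, adjusted p = 0.823), and acutely isolated over GFP-negative cells gave 0.17 (SE 0.37, adjusted p = 0.764). The sign of the latter changed to -1.01 (adjusted p = 0.144) with an offset for transcript length, and a single 644-base transcript took up to 72.6% of Sdc3 TPM in the GFP-negative cells.

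Gpc1, a lipid-anchored heparan sulfate proteoglycan, was the scarcest member in culture. It was at 24.3 and 5.95 TPM in the GFP-negative cells, 0.260 and 0.0350 TPM in the acutely isolated ECs (42 and 12 estimated counts), 0.707, 1.29 and 3.15 TPM (lowest, median, highest) in the WT cultures and 1.18, 2.22, 0.551 and 0.634 TPM in the stabilized cultures. The acutely isolated libraries lay below all others. Gpc1 was called lower in acutely isolated ECs than in GFP-negative cells, at -6.75 (SE 0.83, adjusted p = 0.00364). Its excess of 3.65 (SE 0.61, adjusted p = 0.00173) in WT cultured over acutely isolated ECs was not called because no culture reached 5 TPM. A retained-intron transcript took up to 80% of its TPM in the GFP-negative cells.

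Cd44, the hyaluronan receptor, was among the 3 members called higher in WT cultured than in acutely isolated ECs. It was at 2.13 and 5.18 TPM in the GFP-negative cells and 0.143 and 0.0920 TPM in the acutely isolated ECs (129 and 43 estimated counts). The WT cultures held 5.05, 29.5 and 46.3 TPM (lowest, median, highest) and the stabilized cultures 11.2, 14.2, 16.2 and 16.8 TPM. Every cultured library lay above both acutely isolated libraries, and WT replicates 1 and 2, at 5.05 and 5.90 TPM, were the lowest cultures. The log2 fold change was 5.78 (SE 1.03, adjusted p = 0.00242), called in 22 of 22 alternatives. Acutely isolated over GFP-negative cells gave -4.39 (SE 0.77, adjusted p = 0.0105), not called because GFP-negative replicate 1 was under 5 TPM. Cd44 is also a gene of leukocytes and microglia. A microglia and macrophage list of 10 genes summed to 8.42 and 20.98 TPM in the acutely isolated ECs, 40.8 to 75.0 TPM in the WT cultures and 41.9 to 90.9 TPM in the stabilized cultures, higher in every culture than in both acutely isolated libraries. In either culture group 8 of the 10 genes were under 1 TPM in every library, Csf1r (at most 0.11 TPM) among them, and 1 was over 5 TPM in every library. The part of these transcripts in the Cd44 level was not tested. A coding transcript of 2848 bases took 59.6% to 80.2% of Cd44 TPM in the WT cultures and was listed at 0 in the acutely isolated ECs, where another of 5045 bases took 89.9% and 100% of the little there was.

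**Figure D3:**
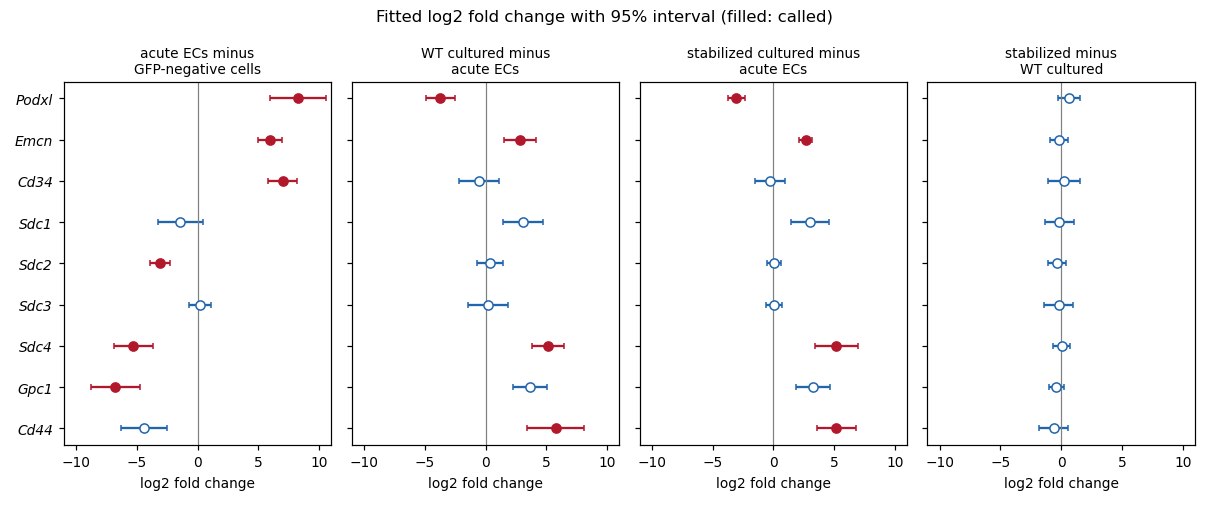
Log2 fold change of each gene with its 95% interval in the 4 comparisons between groups, fitted by edgeR on estimated counts, with filled points for called genes. Podxl lies at -3.72 and Emcn, Sdc4 and Cd44 at 2.83, 5.11 and 5.78 for WT cultured over acutely isolated ECs, while every interval for stabilized over WT cultured ECs includes 0.

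Counted together, 3 of the 9 members (Emcn, Sdc4, Cd44) were called higher and 1 (Podxl) lower in WT cultured than in acutely isolated ECs, where 13.5% of all 13798 genes tested were called higher and 10.2% lower. The members' median log2 fold change was 2.83, against 0.10 over all genes. Between acutely isolated ECs and GFP-negative cells 3 members (the sialomucins) were called higher and 3 (Sdc2, Sdc4, Gpc1) lower, beside 8.28% and 7.55% of 15116 genes. The stabilized cultures compared with the same 2 acutely isolated libraries gave the same 4 members called, 3 higher and 1 lower, beside 15.0% and 11.0% of 13904 genes (26.1% either way). The log2 fold changes stabilized over acutely isolated were -3.05 (SE 0.29) for Podxl, 2.66 (SE 0.23) for Emcn, 5.18 (SE 0.76) for Sdc4 and 5.19 (SE 0.68) for Cd44, with adjusted p from 0.000278 to 0.00176. These values and those of the WT cultures share the acutely isolated libraries and are not independent of each other. Sdc1, at 3.0 (SE 0.66), and Gpc1, at 3.27 (SE 0.59), again missed the TPM minimum. Cd34, at -0.27, and Sdc3, at 0.05, were not called. By TPM all 4 stabilized Sdc3 values (46.0 to 71.7 TPM) nonetheless lay above both acutely isolated ones (23.3 and 30.3 TPM). Sdc2 was not called at 0.06 but was called with the length offset, at 1.04 (adjusted p = 0.0207).

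Beta-catenin stabilized cultured ECs were compared with WT cultured ECs to see whether carrying stabilized beta-catenin, the effector of Wnt signalling, went with other levels of these genes. No member was called, and edgeR called 0 of 12971 genes, with 1422 genes and 0 members at an unadjusted p under 0.05. DESeq2 called 17 genes and limma 0, neither including a member. The largest difference was that of Podxl, at 0.64 (SE 0.41, 95% interval -0.26 to 1.54), and its 4 stabilized values of 30.2 to 111 TPM overlapped the WT range of 23.6 to 62.6 TPM. The intervals leave room for changes beyond 2-fold in either direction for Cd34 (-1.10 to 1.54) and Sdc1 (-1.33 to 1.02), upward for Podxl, and downward for Cd44 (-1.82 to 0.58), Sdc3 (-1.42 to 0.99), Sdc2 (-1.12 to 0.40) and Gpc1 (-1.01 to 0.21). Those of Emcn (-0.91 to 0.51) and Sdc4 (-0.65 to 0.75) lay within it.

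All 9 genes varied among the WT culture experiments. The 3 experiments were method A (replicates 1 and 2, 36 cycles), method B sequenced for 150 cycles (replicates 3 and 4, libraries prepared at another facility) and method B sequenced for 36 cycles (replicates 5 and 6). The variation had an adjusted p under 0.05 by edgeR's quasi-likelihood test for 9 of 9 members, as it had for 89.8% of all 13063 genes, so that count does not set the members apart. The spread between the highest and lowest experiment was 2.70 on the log2 scale for Sdc3, 2.68 for Cd34, 2.43 for Cd44, 2.02 for Sdc1, 1.84 for Podxl, 1.54 for Sdc2, 1.32 for Emcn, 0.85 for Gpc1 and 0.67 for Sdc4, against a median of 1.22 over all genes. Sdc3 stood at 11.6 and 17.4 TPM in method A, 264 and 210 TPM in the 150-cycle wells and 54.2 and 44.8 TPM in the other method B wells. Podxl was highest in method A, at 38.8 and 62.6 TPM, and Emcn likewise at 1928 and 2172 TPM, whereas Cd44 was lowest there and at 46.3 and 42.1 TPM in the 150-cycle wells and 30.3 and 28.6 TPM in the 36-cycle wells of method B. The proliferation list followed the experiments too, at 104 and 121 TPM in replicates 3 and 4, 45.5 and 73.7 TPM in replicates 1 and 2 and 11.0 and 12.1 TPM in replicates 5 and 6. Replicates 3 to 6 share the labelled genotype, so their differences, such as those of Cd34 and Sdc3, lay within 1 genotype, and by the study's methods within 1 isolation method. Among them experiment, read length and library facility cannot be told apart, and strain and isolation method cannot be told apart between replicates 1 and 2 and the rest.

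Against the acutely isolated ECs, 4 members kept their call in each WT experiment taken alone. Over all genes, 2033 were called higher and 1776 lower of 13414 in method A. The counts were 2864 and 2065 of 13526 in the 150-cycle wells and 2188 and 1547 of 13580 in the 36-cycle wells of method B. These fits share the same 2 acutely isolated libraries and are not independent of each other. Podxl was lower by -3.0, -4.86 and -3.87 (method A, method B 150 cycles, method B 36 cycles), Emcn higher by 3.46, 2.11 and 2.60, Sdc4 by 4.81, 4.87 and 5.54 and Cd44 by 3.98, 5.91 and 6.47. Sdc1 was called higher in method A (3.6) and in the 150-cycle wells (3.41) but not in the 36-cycle wells of method B (1.64). Sdc3 was called lower in method A, at -1.67 (SE 0.23, adjusted p = 0.00708), and was at 1.0 (adjusted p = 0.0181), just under the fold threshold, in the 150-cycle wells. Sdc2 was called higher in the 150-cycle wells alone, at 1.0 (adjusted p = 0.0179), just over it. By TPM both genes stood further from the acutely isolated ECs. Sdc3 was at 264 and 210 TPM in these wells against 23.3 and 30.3 TPM, and Sdc2 at 32.4 and 30.1 against 2.86 and 4.94 TPM. The size of these 2 differences thus depends on whether counts or TPM are compared. The 2 scales differ in the treatment of transcript length and in the scaling between libraries, and the part of each was not tested.

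Within an isolation method, stabilized and WT cultures did differ for single members, and the difference between the methods was tested as an interaction over the 36-cycle libraries. In method A, Sdc3 was called higher in stabilized than in WT wells, at 1.30 (SE 0.10, adjusted p = 0.000596), with 53.9 and 71.7 TPM against 11.6 and 17.4 TPM, beside 5.39% of 12860 genes called higher. In the 36-cycle wells of method B, Cd34 was called higher, at 1.25 (SE 0.09, adjusted p = 0.000900), with 121 and 126 TPM against 49.4 and 58.6 TPM, beside 1.08% of 12847 genes. The values of the 2 genotypes did not overlap in either case, but Cd34 in method A gave 0.05 (SE 0.08) and Sdc3 in method B 0.11 (SE 0.10). In the same method B wells Cldn5 was also higher in stabilized than in WT, at 184 and 206 against 92.1 and 118 TPM. Pecam1 and Tie1 were higher too, and the other genes of the EC marker list overlapped. The part of these differences in the Cd34 call was not tested. Emcn in method A was at -0.72 (SE 0.10, adjusted p = 0.00202) although its TPM overlapped, 2118 and 2113 against 1928 and 2172 TPM. The stabilization effect differed between methods at an adjusted p under 0.05 for 6 of 9 members (Emcn, Cd34, Sdc3, Sdc4, Gpc1 and Cd44), beside 49.5% of all 13369 genes. In method A the WT mice were C57BL/6J and the stabilized mice carried 3 engineered alleles, so genotype, strain and experiment cannot be told apart there. In method B the stabilized and the 36-cycle WT wells came from separate experiments, so genotype and experiment cannot be told apart there either.

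**Figure D4:**
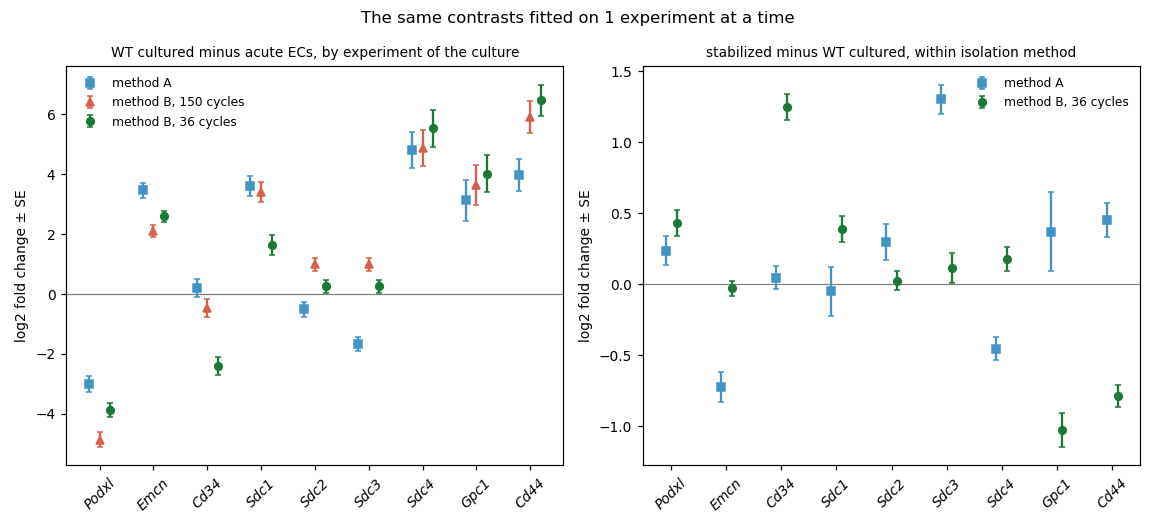
Log2 fold changes of the 9 genes, with SE bars, for WT cultured minus acutely isolated ECs in each culture experiment (left) and for stabilized minus WT cultured ECs within each isolation method (right), 2 wells per point and genotype. On the left Podxl lies below 0 and Emcn, Sdc4, Gpc1 and Cd44 above 0 in all 3 experiments, and on the right Cd34 stands at 1.25 in method B and Sdc3 at 1.30 in method A.

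Open chromatin at the transcript starts was read from the peaks the authors called in each ATAC library, as the highest fold enrichment of a peak within 1000 bases of a start. Podxl had 17.5 and 16.0 in the acutely isolated ECs and 8.30 to 14.3 in the WT cultures. Cd34 had 15.0 and 14.8 against 7.28 to 9.29, and Emcn 11.1 and 9.0 against 4.50 to 6.31. For all 3 sialomucins every WT and both stabilized libraries lay below both acutely isolated libraries, while the RNA of Emcn was higher in culture. Sdc2 went the other way, with 5.69 and 4.56 acutely isolated and 11.9 to 17.2 in the WT cultures. Sdc1 and Sdc4 overlapped between the states (4.96 and 7.40 against 3.72 to 7.90 for Sdc1, and 9.37 and 7.42 against 4.81 to 7.98 for Sdc4). Sdc3 had 7.95 and 6.51 acutely isolated and 3.90 to 13.7 in WT culture, with no called peak in WT replicate 2. These values came from different starts. At the start near chr4:130792549 both acutely isolated libraries lay above the cultures, with 3.90 to 5.075 in the 5 WT libraries called and 3.55 to 4.07 stabilized. Near chr4:130814955 no acutely isolated library had a peak, 4 WT libraries had 6.28 to 13.7 and the 2 stabilized libraries 7.68 and 7.80. Gpc1 had weak peaks throughout, 2.98 in acutely isolated replicate 1 and 3.43 to 5.37 in WT culture, with none called in acutely isolated or WT replicate 2.

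Cd44 had no called peak at a start in either acutely isolated library or in WT replicates 1 and 2 (method A), and peaks of 11.0, 11.5, 15.0 and 16.0 in WT replicates 3 to 6 and 12.9 and 10.3 in the stabilized libraries, all method B. The method A WT RNA libraries held 5.05 and 5.90 TPM of Cd44 nonetheless, the lowest levels of all cultures. A peak at a start in every library of the group was found for 7 members in the acutely isolated ECs, 6 in the WT and 9 in the stabilized cultures, beside 54.1%, 52.9% and 61.3% of 21762 genes. Method A libraries gave 50450 and 33152 peaks in all and the method B libraries 79160 to 98840, with 37453 and 31844 in the acutely isolated ECs. The number of peaks called therefore moved with the method, and its part in the Cd44 pattern was not tested. Fold enrichment is relative to the local background of each library, and was not tested between groups.

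**Figure D5:**
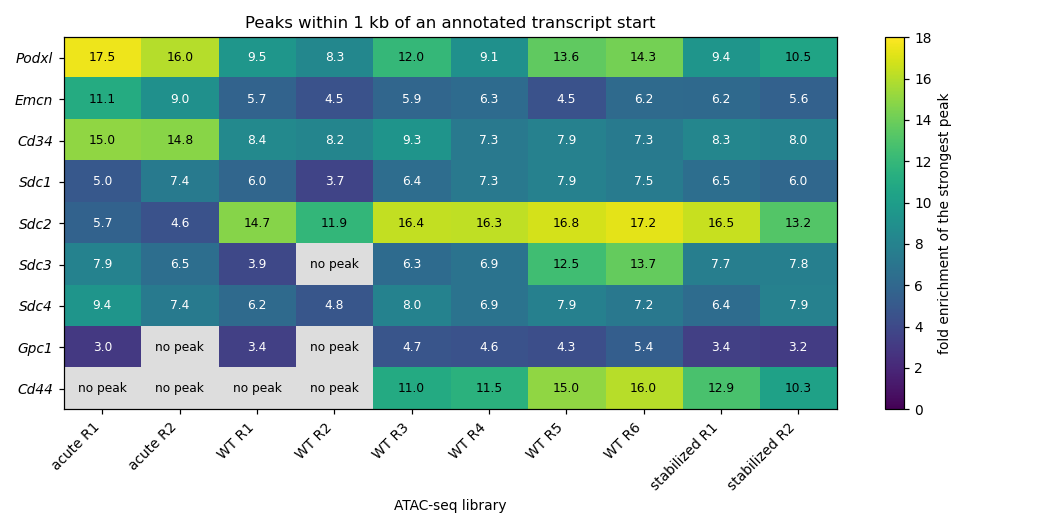
Heat map of the highest fold enrichment of a called peak within 1000 bases of an annotated transcript start, by gene and ATAC-seq library, with the value printed in each cell and grey cells marking no called peak. Podxl, Emcn and Cd34 are highest in the acutely isolated libraries and Sdc2 lowest, and Cd44 has peaks of 10.3 to 16.0 in the method B cultures and none elsewhere.

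Merged peaks within 10000 bases of the members made 83 regions. Of these, 3 (3.61%) had a peak in both acutely isolated libraries and in no culture, beside 2.84% of all 126319 regions. They included introns of Emcn (chr3:137367923-137368073, no motif match) and Cd34, and the third region and its letters are not reported here. Another 6 (7.23%) had a peak in every culture and in neither acutely isolated library, beside 8.01% of all regions: 2 in Podxl, 2 in Sdc4, 1 in Sdc3 and 1 upstream of Emcn. A further 9 regions (10.8%, beside 13.4% of all) had a peak in every library. All 3 shares lay near the background. Over all regions of the second class AP-1 letters were found in 46.7% of windows and TEAD letters in 19.6%, against 2.55% and 7.69% in the acutely isolated class and 23.2% and 14.3% of all 125950 windows. SOX letters were in 34.5% of the acutely isolated class and 25.2% of all windows. Among the 6 culture windows of the members, 2 held AP-1 and 3 held TEAD letters, and 3 held none of the 7 motifs. RefSeq promoter windows (GRCm38.p6, 300 bases) were matched for 6 members. Those of Sdc4, Sdc1, Sdc3 and Cd44 held 4, 3, 3 and 1 matches to GGGCGG on either strand. Those of Emcn and Cd34 held none. These letters were found in 35.7% of all 32851 promoters.

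The enzymes and partners of these core proteins were followed as a list of 162 further genes. In WT cultured against acutely isolated ECs 14 of the 134 tested were called higher and 20 lower, beside 13.5% and 10.2% of all genes tested, with a median log2 fold change of -0.004, against 0.10 over all genes. The counts of its sub-lists below stand beside the same 2 shares and were not tested against them. Sialic acid genes gave 2 higher and 9 lower of 21 tested. St6galnac3, which adds sialic acid to O-glycans, was at 46.0 and 49.2 TPM acutely isolated and 2.93 to 12.5 TPM in the WT cultures (log2 fold change -3.13, adjusted p = 0.000570). St3gal6 was at 144 and 406 TPM against 23.7 to 102 TPM (-2.88, adjusted p = 0.000570), and St6gal1 at 18.4 and 27.4 against 3.88 to 11.2 TPM (-2.69, adjusted p = 0.000457). The ranges of all 3 sialyltransferases were apart. Nans, a sialic acid synthase, and the sialidase Neu1 were the 2 called higher (1.32 and 1.20). For St3gal1 and St8sia6, both called lower (-1.90 and -1.59), the mean TPM was 17.8 and 9.42 acutely isolated and 21.4 and 9.98 in WT culture. The direction of these 2 thus depends on whether counts or TPM are compared.

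Among heparan sulfate genes 4 of 22 tested were called higher and 1 lower in WT culture: Sulf2, which edits sulfation, at 3.68 although its TPM overlapped (0.989 and 11.0 acutely isolated, 6.13 to 28.8 in culture), B4galt7 of the linkage region at 2.25, the polymerase gene Ext1 at 1.57 and Hs2st1, against Extl3 at -2.22 with 122 ± 19.7 TPM (SD, n = 2) acutely isolated and 21.6 ± 7.65 TPM (SD, n = 6) in culture. In the mucin-type O-glycan list B3gnt3 went from 0.153 and 0.439 TPM to 12.3 to 134 TPM (5.75, adjusted p = 0.000813). Of the proteases that shed ectodomains 3 of 7 tested were called lower, Adam10 (-2.34), Adam17 (-1.71) and Mmp15 (-3.79). The median over the 7 was nonetheless 2.76. Mmp14 went the other way, from 0.487 and 0.911 TPM acutely isolated to 4.23 to 34.7 TPM in WT culture, and was not called. Adam10 in WT culture ran from 9.95 to 110 TPM, against 144 and 202 TPM acutely isolated.

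Among cytoplasmic partners the syntenins Sdcbp and Sdcbp2, which bind syndecan tails, were called higher: Sdcbp2 was at 0.124 and 0.601 TPM acutely isolated and 129 to 281 TPM in WT culture (8.79, adjusted p = 5.78e-05). Tiam1, a Rac activator that also binds syndecans, was at 89.4 and 121 TPM acutely isolated and 0.215 to 0.672 TPM in WT culture (-8.08, adjusted p = 0.000118). Slc9a3r2, a scaffold for podocalyxin, was called lower (-1.82), but its WT range of 30.6 to 253 TPM spanned the acutely isolated values of 226 and 236 TPM. Other proteoglycans gave Esm1 (4.32) and Col18a1 (4.04) higher and Agrn (-3.87), Tgfbr3 (-1.89) and Thbd (-1.06) lower, though mean TPM of Thbd was 46.7 acutely isolated and 72.7 in culture. Serglycin (Srgn), the proteoglycan of secretory granules, was at 460 and 579 TPM acutely isolated and 323 to 391 TPM in WT culture.

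Between acutely isolated ECs and GFP-negative cells 23 of 147 tested pathway genes were called higher and 16 lower, beside 8.28% and 7.55% of all genes tested. Sialic acid genes gave 8 higher and 0 lower of 27 tested, led by St6galnac2 (5.67), St8sia6 (5.18) and St8sia4 (4.91). In the stabilized against the WT cultures 0 of 124 tested pathway genes were called by edgeR, the same count as over all genes.

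The genes whose levels ran most like each member's over the 14 libraries, by Pearson correlation of log2(TPM + 1) among 8748 expressed genes, were Kdr (r = 0.991), Flt1 and Prom1 for Podxl, Edn1 (0.989), Gm49391 and Tpm4 for Emcn, and Ly6a (0.983), Nos3 and Abcg2 for Cd34. For the syndecans they were Ppp1cc (0.980) for Sdc1, Slc20a2 (0.984) for Sdc2, Mien1 (0.979) for Sdc3 and Thyn1 (0.977) for Sdc4, and for Gpc1 and Cd44 Smim20 (0.972) and Dusp14 (0.986). The libraries fall into groups and experiments with shared read types, and a likeness across them is a description of that pattern.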

How the data were processed

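RNA-seq (14 libraries) and ATAC-seq (10 libraries) were analysed from the deposited files, with groups taken from the sample labels. The authors quantified transcripts with Salmon 0.14.0 on GENCODE M21 (GRCm38), and the deposited files give estimated counts and TPM per transcript. The authors aligned ATAC reads with HISAT2 2.1.0, removed duplicates with Picard and ran MACS2 2.1.2 on single libraries, and the deposited peak files give a fold enrichment, a −log10 q-value and a score for each peak. The authors' comparisons and cerebrum-only samples were not analysed here.

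Estimated counts and TPM were summed per gene symbol, counts were rounded, and each comparison was fitted on all protein-coding genes that passed filterByExpr, with TMM scaling, using edgeR 4.0.16 (R 4.3.3) quasi-likelihood tests and Benjamini-Hochberg adjustment. Only the libraries of the groups compared entered a fit. Calls needed an adjusted p under 0.05, a log2 fold change over 1 in size and 5 TPM in every library of the higher group, while the interaction and the test among experiments needed the adjusted p alone. DESeq2 1.42.0, limma 3.58.1 on log2(TPM + 1) and log2(TPM + 0.1), other scalings and filters, left-out libraries and single experiments were the alternatives. The tests were tried on simulated counts.

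All 9 members are described. Other pathway genes were named as the strongest calls of each list, with the St3gal1, St8sia6, Hs2st1, Srgn and Mmp14 values added after they were seen. The members and lists were chosen with earlier results of these data known. Depth ranged from 24284843 to 94686456 counts, and both depth and the number of libraries limit precision. Peaks were joined to genes at GENCODE transcript starts (within 1000 bases) or within 10000 bases of the gene, and peaks of all libraries that touched were merged into regions. Promoter windows came from RefSeq.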

Additional observations from a re-analysis of the deposited data

Results flagged for a closer look

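For 6 genes the log2 difference between stabilized and WT cultured ECs itself differed between the isolation methods (method B minus method A, 36-cycle libraries, edgeR's quasi-likelihood interaction test with Benjamini-Hochberg adjustment). The difference was 1.22 for Cd34 (SE 0.13, adjusted p = 0.000236), 0.712 for Emcn (SE 0.11, adjusted p = 0.00116) and 0.655 for Sdc4 (SE 0.13, adjusted p = 0.003), all more positive in method B. It was -1.17 for Sdc3 (SE 0.16, adjusted p = 0.000613), -1.22 for Cd44 (SE 0.14, adjusted p = 0.000332) and -1.38 for Gpc1 (SE 0.32, adjusted p = 0.00770), all more negative in method B. Each rests on 2 wells per genotype and method, and 49.5% of all genes passed the same test. A check for a single deviating library in the groups of 4 and 6 found none, but wells came in pairs of 1 experiment and such a check cannot find a deviating pair.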

How the results depend on the processing

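The calls of Podxl, Emcn, Sdc4 and Cd44 between cultured and acutely isolated ECs were the same in all 22 alternatives for WT and all 18 for stabilized cultures, and the 6 calls between acutely isolated ECs and GFP-negative cells in all 13. Of the log2 fold changes of single genes, 809 kept their direction and side of the threshold, 62 changed sign, 23 gained a call (3 of these with a change of sign, all Sdc3) and 0 lost one. Counts of members moved by over 1.5 times in the following settings. For WT over acutely isolated ECs 5 were higher with no TPM minimum (Sdc1 and Gpc1 added), beside 3160 of 13798 genes. In the 150-cycle wells 5 were higher, beside 2864 of 13526 genes. In method A 2 were lower, beside 1776 of 13414 genes. In the 36-cycle wells of method B 2 were lower, beside 1547 of 13580, and under the replicate block 2, beside 1779 of 13414. For stabilized over WT cultured ECs 1 gene was higher in method A, beside 5.39% of all genes tested. In the 36-cycle wells of method B 1 was higher, beside 1.08%. For stabilized over acutely isolated ECs 5 were higher with no TPM minimum, beside 3411 of 13904 genes, and 2 lower in method B, beside 1515 of 13631. Leaving out 1 library gave 3 to 3 members higher and 1 to 1 lower for either culture against acutely isolated ECs, 3 to 3 higher and 3 to 4 lower against GFP-negative cells, 0 to 0 for stabilized over WT and 6 to 7 for the interaction.

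Signs changed for genes that were not called. For WT over acutely isolated ECs, method A gave Cd34 0.208, Sdc2 -0.509 and Sdc3 -1.67, and the 36-cycle wells gave Sdc2 -0.073 and Sdc3 -0.407. Leaving out 1 library put Sdc3 between -0.046 and 0.427. For acutely isolated over GFP-negative cells, Sdc3 was -0.247 with library size alone, -1.01 with a length offset, -1.17 and -1.19 with limma (pseudocounts 1 and 0.1) and -0.157 to 0.609 without 1 library, and Sdc1 was 0.004 with the length offset.

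For stabilized over WT cultured ECs, Sdc4 was -0.006 with library size alone. With limma, Emcn was 0.068 and Sdc4 -0.072 at either pseudocount, and Sdc3 0.004 at 0.1. Isolation method as a term gave Cd34 -0.047 and Sdc3 0.375. The 36-cycle libraries gave Sdc1 0.047, Sdc2 0.129, Sdc3 0.46 and Sdc4 -0.039. Method A gave Sdc2 0.296, Sdc3 1.30, Sdc4 -0.455, Gpc1 0.37 and Cd44 0.452, and method B at 36 cycles gave Sdc1 0.389, Sdc2 0.025 and Sdc3 0.114. Without 1 library Emcn ran from -0.307 to 0.033, Cd34 from -0.051 to 0.478, Sdc1 from -0.576 to 0.076, Sdc3 from -0.381 to 0.069 and Sdc4 from -0.203 to 0.242. For stabilized over acutely isolated ECs, DESeq2 gave Sdc2 -0.002 and Sdc3 -0.014, and method A gave Cd34 0.273, Sdc2 -0.192 and Sdc3 -0.348. Without 1 library Cd34 ran from -0.567 to 0.141, Sdc2 from -0.032 to 0.178 and Sdc3 from -0.095 to 0.206. The cause of these changes was not tested.

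Replicate numbers did not pair the samples: deviations of same-numbered WT and stabilized wells correlated at 0.538 and 0.529 for numbers 1 and 2, but at -0.002 and 0.055 for 3 and 4. A fit with the number as a block gave, for WT over acutely isolated ECs, Cd34 0.255, Sdc2 -0.509 and Sdc3 -1.67, with Sdc3 then called lower. For stabilized over WT the block gave Cd34 -0.335, Sdc3 0.337 and Cd44 0.099, and for stabilized over acutely isolated ECs Cd34 0.32, Sdc2 -0.2 and Sdc3 -0.341. Over all genes tested, the median for WT over acutely isolated ECs was 0.10, and 0.30 with library size alone, 0.55 and 0.70 with limma. With limma the split of called genes for stabilized over acutely isolated ECs shifted toward higher calls (2399 higher and 914 lower, against 2092 and 1530).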
